A study of Mus musculus with 12 samples.

Results

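Genes were compared between Tet2 knockout (KO) and wild-type (WT) leukemic cells that had both been under actinomycin D for 4 h. The comparison rests on 4 of the 12 RNA libraries of the series, 2 from KO and 2 from WT cells, taken by their labelled genotype and time. Of the 24589 genes in the deposited table, the 11152 with at least 1 TPM in at least 2 of the 12 libraries were tested. TPM is a gene's length-corrected share of a library, scaled so that a library sums to the same total as any other. All the cells are NRAS/AE9a leukemic cells, labelled as AML (acute myeloid leukemia) cells of the mouse, whose name refers to the oncogene NRAS and to AE9a, the splice form of the AML1-ETO fusion known as AML1-ETO9a. The groups used are Tet2 KO cells at 0, 4 and 8 h and WT cells at 0, 4 and 8 h, with 2 libraries each, and the dose of actinomycin D was 5 µg/ml for both genotypes. Both genotypes grew in SCF, IL-3 and IL-6 with G418 and puromycin, so the WT cells carry the oncogenes, the selection and the drug as the KO cells do. The labels name no further KO or WT line, and do not say how Tet2 was knocked out, so genotype cannot be told apart from any other difference between these cell populations. Whether replicate libraries stem from separate cultures is not stated either, and p-values therefore describe the spread between libraries alone, which may be technical. By its title, the study concerns TET2, mRNA, and the stemness and homing of leukemia.

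TET2 is a dioxygenase that oxidises 5-methylcytosine in DNA and is also known to act on 5-methylcytosine in RNA. It is often mutated in myeloid malignancies, and in mice its loss enlarges the stem cell compartment and skews myeloid differentiation. Actinomycin D intercalates into DNA and stops RNA polymerases, so that after some hours a library holds the transcripts that were made before the block and have not yet decayed. Each value is a share of what is left, and the labels mention no spiked-in RNA, so a long-lived transcript gains share as others decay. A difference at 4 h can hold a difference in level that was there before the drug and a difference in loss since then. This is why values at 0 h are set beside it for a part of the lists and genes.

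The 4 libraries formed a close pair within each genotype. Across the genes tested, log2(TPM + 1) correlated at r = 0.994 between the KO libraries and at r = 0.994 between the WT libraries, and at no more than 0.974 across genotypes. KO libraries held 9595 and 9560 genes at 1 TPM or more, against 9708 and 9757 in WT libraries. The 10 most abundant genes took 16.4% and 16.2% of all TPM in KO libraries, against 23.8% and 24.3% in WT libraries. Sequencing depth cannot be read from TPM and is unknown.

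Markers of myeloid progenitors and of maturing myeloid cells were both present. Of 14 measured identity genes of myeloid leukemia, 3 were higher and 4 lower in KO cells at 4 h (median -0.14), and progenitor markers did not move together, since Cd34 was higher and Kit lower (-0.69 ± 0.13). Cd34, a surface marker of progenitors, had 499 and 513 TPM in KO libraries, against 302 and 296 TPM in WT libraries. Itgam, the integrin chain CD11b of maturing myeloid cells, had 176 and 171 TPM in KO libraries, against 399.9 and 385 TPM in WT libraries. Runx1t1, the gene that gives the ETO part of the fusion, had 9.19 and 7.14 TPM in KO libraries and 21.6 and 22.3 TPM in WT libraries, and whether reads from the introduced construct were counted there is not given. Few markers of other lineages were detected: of 16 T and NK cell markers only Nkg7, which myeloid granules also hold, passed the filter on low values, with 18.3 and 20.4 TPM in KO libraries and 4.39 and 5.92 TPM in WT libraries. Of 11 B cell markers only Blnk did, at 0.08 and 0.04 TPM in KO libraries and 0.8 and 1.01 TPM in WT libraries. Of 16 stromal and endothelial markers 5 passed, among them Thy1 with 52.95 and 56.6 TPM in KO libraries and 35.8 and 33.8 TPM in WT libraries. The list summed to 0.00698% and 0.00705% of all TPM in KO libraries, against 0.00579% and 0.00548% in WT libraries, and single libraries left out ended calls among these 5 genes. What part other cells had in the results was not tested.

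At 4 h, 4309 of the 11152 genes differed between KO and WT cells at an adjusted p below 0.05, which is 38.6% of the genes tested. Of these, 2782 were higher in KO cells (24.9% of the genes tested) and 1527 were lower (13.7%). Larger differences leaned the other way: of the called genes that differed by at least 1 on the log2(TPM + 1) scale, 174 were higher in KO cells and 343 were lower. The median over all genes tested was 0.10. With libraries rescaled by the median ratio over genes, the split became 2194 higher and 2060 lower and the median 0.02, so the excess of small positive differences depends on the scaling. All differences given are KO minus WT on the log2(TPM + 1) scale with the standard error (SE) of the limma fit, and understate the change of genes near 1 TPM. Without WT replicate 2 the genes higher in KO cells numbered 1766, and without KO replicate 1 they numbered 1836. Of the 4309 called genes, 2254 were called without each of the 4 libraries in turn. At 0 h the same test called 2871 genes, 25.7% of the genes tested (14.3% higher in KO cells and 11.5% lower), and 1733 without KO replicate 1 of 0 h or 1710 without KO replicate 2 of 0 h. The split at 0 h, 1593 higher and 1278 lower, rests on single libraries: it was 977 and 1330 without WT replicate 1 of 0 h, 835 and 898 without KO replicate 1 of 0 h and 1680 and 864 without WT replicate 2 of 0 h. At 8 h the test called 5511 genes, or 49.4% (37.3% higher and 12.1% lower), and this split too depends on the scaling, since 4161 were higher and 1350 lower as fitted and 2834 higher and 2657 lower under median-ratio scaling. The KO and WT values at 4 h did not overlap in 73.2% of the genes tested, so with 2 libraries a side the absence of overlap alone says little.

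**Figure D1:**
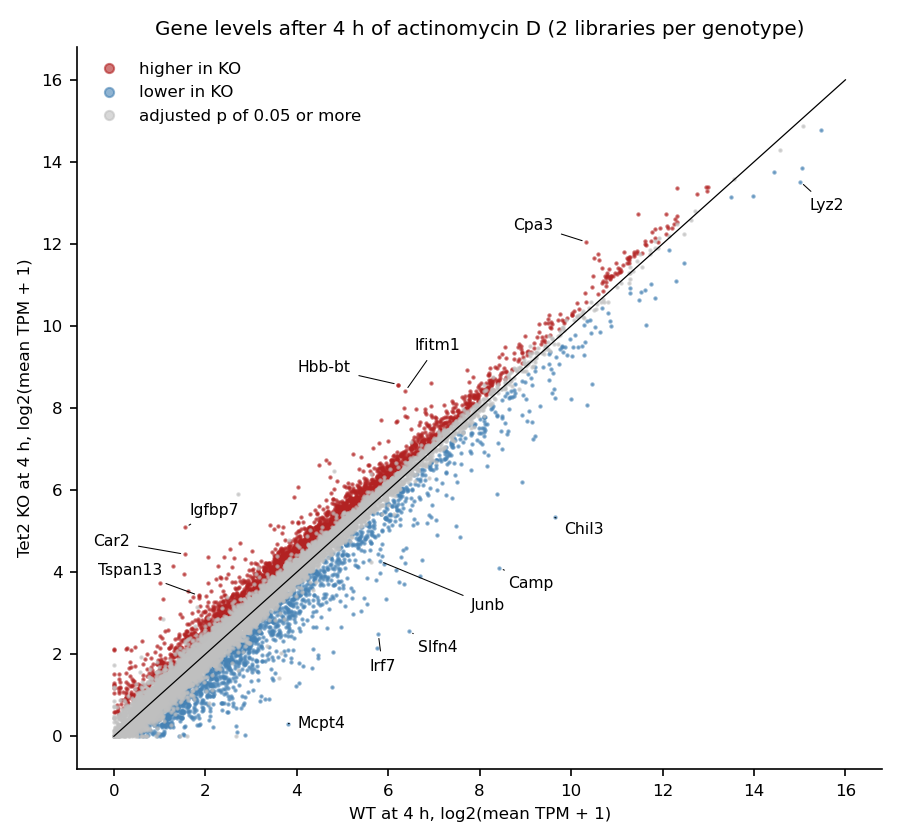
Mean level of each of 11152 genes in KO cells (vertical axis) against WT cells (horizontal axis) after 4 h of actinomycin D, both as log2(mean TPM + 1), 2 libraries per genotype, with the line of equal level. Red points are the 2782 genes higher in KO cells, blue points the 1527 lower, and named genes such as Igfbp7 at 35.2 and 31.1 TPM in KO libraries lie far from the line.

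The genes farthest apart included granule, interferon and mast cell genes on the lower side and progenitor, erythroid and platelet-lineage genes on the higher side. Camp, the antimicrobial cathelicidin of neutrophil granules, had 17.6 and 14.9 TPM in KO libraries, against 344 and 346 TPM in WT libraries, a difference of -4.33 ± 0.15 and a 21.2-fold lower mean TPM. At the other end, Igfbp7, a secreted binding protein for insulin-like growth factors, had 35.2 and 31.1 TPM in KO libraries, against 1.99 and 1.92 TPM in WT libraries (3.53 ± 0.13). For both genes the spread within a genotype was small beside the gap between genotypes. Among the 15 largest higher genes were also the carbonic anhydrase Car2, with 20.97 and 20.3 TPM in KO libraries and 1.33 and 2.53 TPM in WT libraries, and the peptidoglycan amidase Pglyrp2, with 15.5 and 13.6 TPM in KO libraries and 1.97 and 1.84 TPM in WT libraries. The actin-severing protein Scin had 106 and 106 TPM in KO libraries and 24.7 and 23.6 TPM in WT libraries. Npl, a lyase that breaks down sialic acid, and Col18a1, a basement membrane collagen, differed by 2.04 ± 0.09 and 1.97 ± 0.12. On the lower side, the membrane carbonic anhydrase Car4 had 1.42 and 1.21 TPM in KO libraries, against 25.8 and 26.6 TPM in WT libraries (-3.56 ± 0.14). Complement factor B (Cfb), the acute-phase protein Saa3 and the membrane protein Mcemp1 differed by -2.74 ± 0.18, -2.71 ± 0.18 and -2.64 ± 0.23. Each of these genes was called without each of the 4 libraries in turn, which the rule for naming them required.

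**Figure D2:**
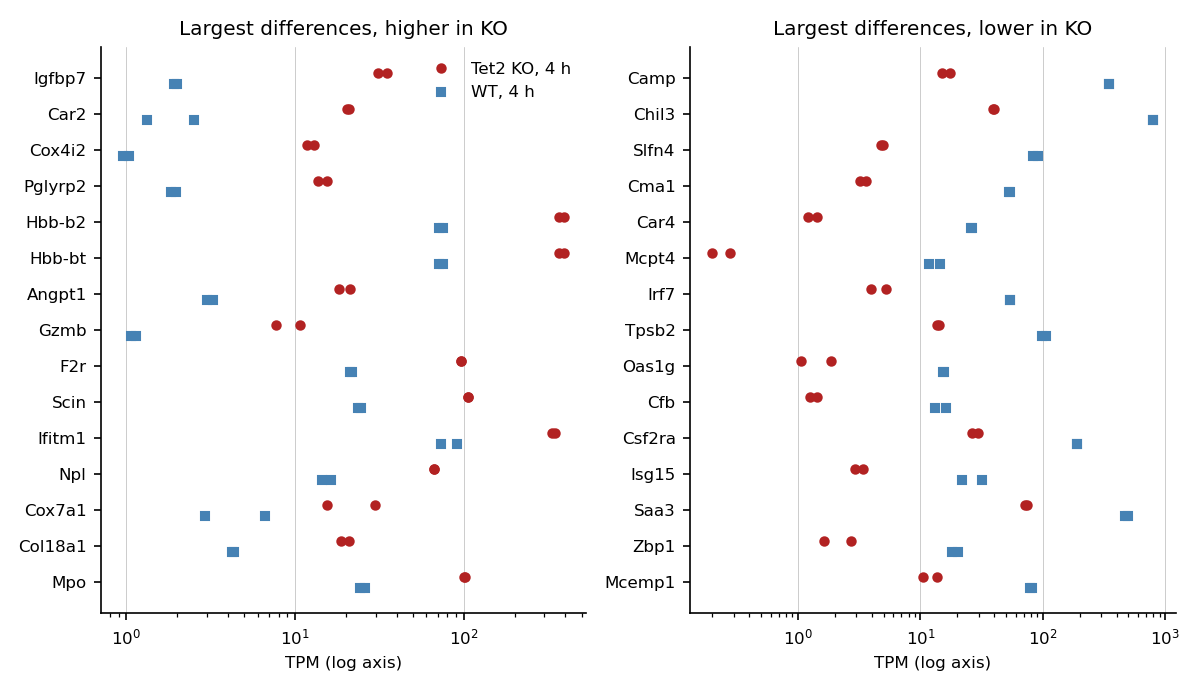
TPM (log axis) of the 15 genes farthest apart in each direction at 4 h, KO libraries as red circles above WT libraries as blue squares, 1 symbol per library. Genes run from Igfbp7 (difference 3.53) down to Mpo on the left and from Camp (difference -4.33) down to Mcemp1 on the right. The KO and WT symbols stand apart in every gene shown because the rule for naming these genes required it.

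**Figure D3:**
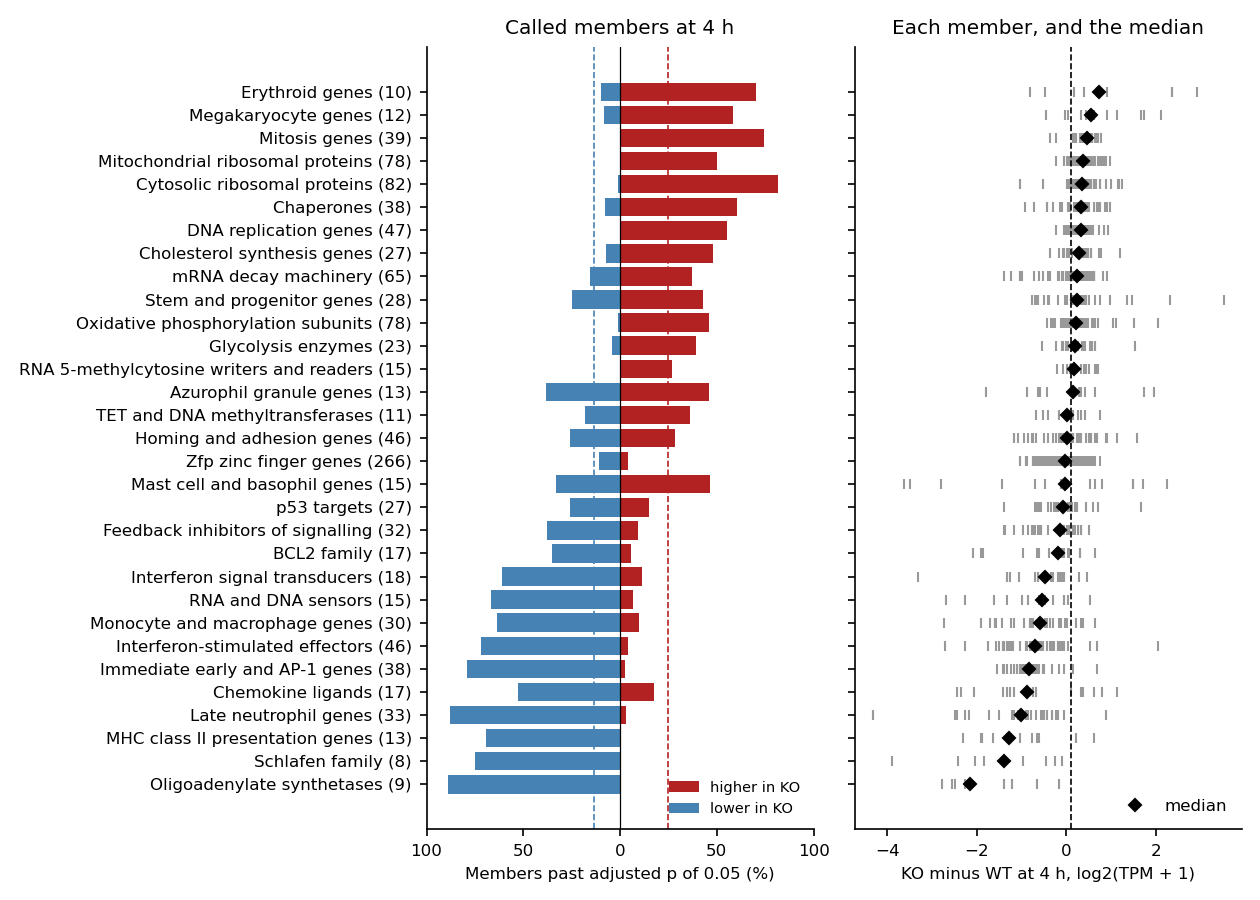
Left, the percentage of each gene list's measured members (number in brackets) that passed an adjusted p of 0.05 at 4 h, higher in KO cells to the right and lower to the left, with dashed lines at the 24.9% and 13.7% of all genes tested. Right, each member's difference, KO minus WT, as a tick, with the list's median as a diamond and the median of all genes (0.10) as a dashed line. Of the lists drawn, which leave out identity genes and markers of other lineages, oligoadenylate synthetases have the lowest median (-2.15) and erythroid genes the highest (0.72). The erythroid list takes Hbb-bt and Hbb-b2, which carried the same values, as separate members.

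The targeted gene was lower in KO cells, and of 3 further genes tied to the study's question 1 was higher, 1 lower and 1 did not pass the test. Tet2 (chr3:133463679-133545139, minus strand, GRCm38) had 6.42 and 5.82 TPM in KO libraries, against 10.6 and 10.2 TPM in WT libraries, 1.70-fold lower in KO cells (-0.68 ± 0.13, limma adjusted p = 0.00136). A gene-level TPM counts exons outside a deletion too, so this lower level does not check the deletion itself. Tspan13 (chr12:36014557-36042500, minus strand), a tetraspanin of the plasma membrane, had 10.6 and 9.04 TPM in KO libraries, against 2.52 and 2.70 TPM in WT libraries, a 3.75-fold higher mean (1.58 ± 0.21, limma adjusted p = 0.000122). Cxcr4 (chr1:128588199-128592293, minus strand), the receptor of the bone marrow chemokine CXCL12, went the opposite way, with 4.97 and 5.58 TPM in KO libraries, against 13.5 and 12.8 TPM in WT libraries (-1.18 ± 0.14, limma adjusted p = 6.74e-05). The KO libraries were thus higher for the tetraspanin and lower for the receptor, with no overlap for either gene, as in 73.2% of the genes tested. Before the drug, at 0 h, Tspan13 already differed by 1.52 ± 0.21 and Cxcr4 by -0.63 ± 0.14, and for neither did the difference change between 0 h and 4 h past the threshold (limma adjusted p = 0.95 for Tspan13 and 0.228 for Cxcr4). The call of Cxcr4 at 0 h ended without KO replicate 2 of 0 h (limma adjusted p = 0.0508) or WT replicate 2 of 0 h (0.0597). Ybx1, a cold-shock domain protein that binds 5-methylcytosine in mRNA, did not pass the test at 4 h: it had 1173 and 1205 TPM in KO libraries and 1144 and 1095 TPM in WT libraries, a difference of 0.09 ± 0.08 with a 95% interval of -0.09 to 0.27. Yet Ybx1 was higher in KO cells at 0 h (0.38 ± 0.08) and at 8 h (0.75 ± 0.08), and the difference at 8 h exceeded that at 4 h by 0.67 ± 0.12 (limma adjusted p = 0.0042).

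Among 11 measured genes of DNA methylation and its removal, 4 were higher in KO cells (36.4%, beside 24.9% of all genes tested). A further 2 were lower (18.2%, beside 13.7%), and the median was 0.01. After rescaling by the median ratio 3 were higher and 3 lower (median -0.02). Tet3, the related dioxygenase, fell together with Tet2, with 3.24 and 3.35 TPM in KO libraries and 5.30 and 4.95 TPM in WT libraries (-0.51 ± 0.12). Dnmt3b, a de novo DNA methyltransferase, had 3.31 and 3.11 TPM in KO libraries and 1.5 and 1.47 TPM in WT libraries (0.76 ± 0.16), and Idh2, the mitochondrial enzyme that makes the TET cofactor 2-oxoglutarate, differed by 0.42 ± 0.08. The other higher members were Idh1 and Uhrf1. The count of higher members was 2 without each of the 4 libraries in turn. Of 15 measured writers and readers of RNA 5-methylcytosine, 4 were higher and 0 lower (median 0.18) beside 0.10 over all genes. They were the tRNA and mRNA methyltransferase Nsun2, with 104 and 106 TPM in KO libraries and 66.6 and 65.6 TPM in WT libraries (0.66 ± 0.07), the cold-shock protein Ybx3 (0.63 ± 0.07), the splicing factor Srsf2 (0.33 ± 0.07) and the nucleolar rRNA methyltransferase Nop2 (0.51 ± 0.15). Nop2 missed the threshold without KO replicate 2 (limma adjusted p = 0.106) or WT replicate 1 (0.118). The share of members called, 4 of 15, is close to the 24.9% of all genes that were higher.

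Genes of late neutrophil maturation were lower in KO cells almost throughout. Neutrophil precursors first fill azurophil granules and later make specific and gelatinase granules, so the lists separate earlier from later products. Of 33 measured late neutrophil genes, 29 were lower and 1 higher, with a median of -1.01. Chil3, a chitinase-like secreted lectin, had 38.99 and 39.6 TPM in KO libraries, against 800.3 and 800.2 TPM in WT libraries (-4.31 ± 0.09). Ngp, a neutrophil granule protein, had 271 and 265 TPM in KO libraries, against 1364 and 1237 TPM in WT libraries (-2.27 ± 0.08), and Retnlg, a resistin-like secreted protein, differed by -2.48 ± 0.08. In each of these genes both WT libraries were several times above both KO libraries. Lyz2, myeloid lysozyme and among the most abundant transcripts, had 11726 and 11730.5 TPM in KO libraries, against 33573 and 32541 TPM in WT libraries (-1.49 ± 0.06). S100a9, a subunit of the calcium-binding protein calprotectin, had 14783 and 14740.03 TPM in KO libraries, against 33348 and 34036 TPM in WT libraries (-1.19 ± 0.06). The list summed to 10.5% and 10.3% of all TPM in KO libraries, against 17.7% and 18.1% in WT libraries. The difference was as wide before the drug, with 30 of the 33 lower and 0 higher at 0 h (median -1.02). In bulk libraries, fewer cells of a maturing type and less of these RNAs per cell cannot be told apart. The exception was Cxcr2, the neutrophil chemokine receptor, chosen here after its values were seen, with 27.2 and 27.2 TPM in KO libraries and 15.2 and 13.6 TPM in WT libraries (0.88 ± 0.13). Azurophil granule genes were mixed, with 6 of 13 higher and 5 lower (median 0.15). Mpo, myeloperoxidase, had 99.7 and 102 TPM in KO libraries, against 25.9 and 24.1 TPM in WT libraries (1.96 ± 0.12), while Elane, neutrophil elastase, had 22.03 and 22.1 TPM in KO libraries, against 77.5 and 80.4 TPM in WT libraries (-1.79 ± 0.12). Prtn3, a serine protease of the same granules, differed by -0.63 ± 0.06, and Serpinb1a, an inhibitor of these proteases, by 0.65 ± 0.06.

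C/EBP factors drive the granule genes of maturing neutrophils, and their core letters, TTGCNNAA on either strand, were looked for in the 250 bases before the RefSeq start of each gene. The letters occurred in 11 of 27 late neutrophil genes with a promoter in the table (40.7%), beside 9.18% of the 8686 tested genes and 10.8% of 27025 RefSeq genes. A share above that of tested genes was not limited to this list or to these letters. TTGCNNAA was also found in 2 of 7 Schlafen genes (28.6%) and 3 of 13 mast cell genes (23.1%). The GATA letters AGATAA were found in 7 of 27 late neutrophil genes (25.9%) and 5 of 13 mast cell genes (38.5%), beside 7.21% of tested genes. The window of Ltf, which encodes the iron-binding protein lactoferrin of specific granules, is shown with the match in capitals because the gene is a classic product of this stage (RefSeq, GRCm38.p6, chr9:111019172-111019269, plus strand, with the match read on the opposite strand).
Ltf: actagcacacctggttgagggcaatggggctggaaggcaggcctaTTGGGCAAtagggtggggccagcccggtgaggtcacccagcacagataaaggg
Ltf had 81.9 and 81.7 TPM in KO libraries, against 173 and 176 TPM in WT libraries (-1.08 ± 0.08). A match to these letters is a description of the window, not a site of binding.

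Monocyte, macrophage and antigen presentation genes were lower as well. Of 30 measured monocyte and macrophage genes, 21 were lower and 4 higher at 0 h (median -0.77). At 4 h 19 were lower and 3 higher, with a median of -0.58. Csf2ra, a chain of the receptor for the growth factor GM-CSF, had 29.7 and 26.3 TPM in KO libraries, against 189 and 192 TPM in WT libraries (-2.72 ± 0.08). Ctss, a lysosomal protease that trims the invariant chain, had 153 and 164 TPM in KO libraries, against 618 and 571 TPM in WT libraries (-1.90 ± 0.07). The galectin Lgals3 and the pore-forming Mpeg1 were lower by similar amounts, with differences of -1.23 ± 0.06 and -1.56 ± 0.07. The 3 higher genes, named after their values were seen, were Adgre1 (0.37 ± 0.06), which encodes the macrophage antigen F4/80, the chemokine receptor Ccr2 (0.64 ± 0.10) and the lectin receptor Clec4e (0.33 ± 0.08), which missed the threshold without WT replicate 2 (limma adjusted p = 0.0703). Of 13 MHC class II presentation genes, 9 were lower and 0 higher both at 0 h (median -1.2) and at 4 h (median -1.28). H2-Aa, a class II alpha chain, had 8.08 and 8.62 TPM in KO libraries, against 45.5 and 45.6 TPM in WT libraries (-2.32 ± 0.12). Cd74, the invariant chain, had 271 and 256 TPM in KO libraries, against 653 and 627 TPM in WT libraries (-1.28 ± 0.07), and H2-DMa, which helps load peptides, differed by -1.33 ± 0.11.

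Interferon-stimulated genes formed a broad group that was lower in KO cells. Type I interferon binds a surface receptor, Janus kinases phosphorylate transcription factors such as STAT2, and these act with IRF9 on a promoter element to switch on sensors, antiviral enzymes and other effectors, with IRF7 as an amplifier of the response. Of 18 measured receptors, kinases and factors of the pathway, 8 were lower and 1 higher at 0 h (median -0.35). At 4 h 11 were lower and 2 higher (median -0.47). Irf7 had 3.98 and 5.21 TPM in KO libraries, against 53.99 and 54.3 TPM in WT libraries, 11.8-fold lower (-3.31 ± 0.14). Stat2 had 6.67 and 5.78 TPM in KO libraries and 17.3 and 15.2 TPM in WT libraries (-1.26 ± 0.13), and Usp18, a protease that restrains the receptor, differed by -1.33 ± 0.24. The kinases went the other way: Jak2 had 32.1 and 33.5 TPM in KO libraries and 24.1 and 23.1 TPM in WT libraries (0.46 ± 0.11), and Jak1 differed by 0.29 ± 0.08, a call that ended without KO replicate 1 (limma adjusted p = 0.0957), KO replicate 2 (0.0633) or WT replicate 2 (0.124).

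Sensors of foreign nucleic acid followed the factors, with 10 of 15 lower and 0 higher at 0 h (median -0.68). At 4 h 10 were lower and 1 higher (median -0.54). Zbp1, a sensor of Z-form nucleic acid, had 1.64 and 2.70 TPM in KO libraries, against 20.3 and 18.1 TPM in WT libraries (-2.69 ± 0.20). Ifi204, a DNA sensor, and the RNA helicases Dhx58 and Ddx58 differed by -2.26 ± 0.14, -1.62 ± 0.16 and -0.99 ± 0.11. The higher member was Tmem173, the adaptor STING, with 32.5 and 30.5 TPM in KO libraries and 21.1 and 21.9 TPM in WT libraries (0.53 ± 0.12). Oligoadenylate synthetases make the second messenger that activates RNase L. They had the lowest median of the lists (-2.15), with 8 of 9 lower and 0 higher, and 9 of 9 lower under median-ratio scaling. At 0 h 8 were lower as well (median -1.88). Oas3 had 7.31 and 6.50 TPM in KO libraries, against 38.99 and 34.5 TPM in WT libraries (-2.25 ± 0.10), and Oas2 had 2.90 and 3.01 TPM in KO libraries, against 21.01 and 21.1 TPM in WT libraries (-2.48 ± 0.13). Oas1a and Oas1g, with differences of -2.15 ± 0.09 and -2.77 ± 0.19, are close copies next to each other, and how reads were divided between them is uncertain. Oasl2 differed by -2.55 ± 0.12.

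Of 46 measured effectors, 33 were lower and 2 higher at 4 h, with a median of -0.69, and at 0 h 34 were lower and 2 higher, with a median of -0.87. Isg15, the ubiquitin-like modifier, had 3.38 and 2.91 TPM in KO libraries, against 31.6 and 21.8 TPM in WT libraries (-2.72 ± 0.45), with the WT libraries wider apart than in most genes named here. Bst2, which tethers virus particles to the cell, had 301 and 308 TPM in KO libraries, against 803 and 806 TPM in WT libraries (-1.40 ± 0.07). Ifitm3 and Ifitm1, neighbouring members of a family of membrane proteins that hinder virus entry, moved in opposite directions. Ifitm3 had 305 and 295 TPM in KO libraries, against 1050.1 and 984 TPM in WT libraries (-1.76 ± 0.07), whereas Ifitm1 had 335 and 346 TPM in KO libraries, against 91.1 and 73.2 TPM in WT libraries (2.05 ± 0.11). The other higher effector was the immunity-related GTPase Ifi47 (0.69 ± 0.10), named after its values were seen. Schlafen genes, an interferon-responsive family with roles in myeloid and T cell quiescence in mice, had 7 of 8 lower at 0 h (median -1.11). At 4 h 6 were lower and 0 higher (median -1.40). Slfn4 had 4.79 and 4.99 TPM in KO libraries, against 91.2 and 82.4 TPM in WT libraries (-3.90 ± 0.10), and Slfn1, Slfn2 and Slfn5 differed by -2.42 ± 0.16, -1.84 ± 0.12 and -2.04 ± 0.12. The Schlafen genes named lie within chr11:82951349-83190216 (GRCm38), on the plus strand, and share sequence.

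The interferon-stimulated response element was searched as GAAANNGAAA on both strands in the 250 bases before the RefSeq start. It occurred in 3.45% of 8686 tested genes and in 3.46% of 27025 RefSeq genes. Among lists, it was found in 4 of 6 oligoadenylate synthetases with a promoter in the table, 16 of 38 effectors, 3 of 7 Schlafen genes, 3 of 16 receptors, kinases and factors, and 2 of 9 sensors. Windows of 5 genes of different roles are shown because their transcripts were among the lower ones at 4 h, with the matched letters in capitals, joined where matches overlap (RefSeq, GRCm38.p6). They are Oas1a at chr5:120907526-120907584, Oas3 at chr5:120777680-120777779, Isg15 at chr4:156200830-156200929 and Bst2 at chr8:71537542-71537641, all on the minus strand, and Stat2 at chr10:128270248-128270330 on the plus strand.
Oas1a: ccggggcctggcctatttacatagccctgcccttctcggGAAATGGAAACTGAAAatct
Oas3: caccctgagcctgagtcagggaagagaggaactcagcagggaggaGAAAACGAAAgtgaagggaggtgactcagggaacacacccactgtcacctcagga
Isg15: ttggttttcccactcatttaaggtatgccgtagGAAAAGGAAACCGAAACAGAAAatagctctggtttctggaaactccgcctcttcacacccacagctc
Bst2: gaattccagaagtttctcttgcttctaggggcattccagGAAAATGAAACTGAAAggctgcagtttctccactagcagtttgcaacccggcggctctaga
Stat2: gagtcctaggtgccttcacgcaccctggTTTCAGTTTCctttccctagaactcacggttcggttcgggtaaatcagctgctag
In Oas1a, Isg15 and Bst2 matches overlap to form longer runs, and the Stat2 match reads on the opposite strand. The TPM of these genes are given above, and no binding was measured.

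Mast cell genes split rather than moving together. Of 15 measured mast cell and basophil genes, 7 were higher and 6 lower at 0 h (median -0.07). At 4 h 7 were higher and 5 lower (median -0.04). Cpa3, the mast cell carboxypeptidase that is also made by early progenitors, had 4081 and 4394 TPM in KO libraries, against 1337 and 1234 TPM in WT libraries (1.72 ± 0.08). The proteases of mature connective-tissue mast cells were far lower. Cma1, a chymase, had 3.58 and 3.23 TPM in KO libraries, against 52.6 and 54.2 TPM in WT libraries (-3.63 ± 0.13), and the tryptase Tpsb2 had 14.1 and 13.7 TPM in KO libraries, against 105 and 98.9 TPM in WT libraries (-2.79 ± 0.13). Mcpt4, another chymase, was below 1 TPM in both KO libraries, at 0.2 and 0.28, against 14.4 and 11.8 TPM in WT libraries (-3.50 ± 0.17). Gzmb, granzyme B, a protease of cytotoxic granules, had 7.67 and 10.7 TPM in KO libraries, against 1.07 and 1.14 TPM in WT libraries (2.26 ± 0.19). The receptor gene Kit, whose ligand SCF was in the medium, had 3.30 and 3.07 TPM in KO libraries and 5.61 and 5.89 TPM in WT libraries (-0.69 ± 0.13).

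Erythroid and megakaryocyte genes were mostly higher in KO cells. Of 21 erythroid genes 10 passed the filter on low values, and of these 7 were higher and 0 lower at 0 h (median 0.9). At 4 h 7 were higher and 1 lower (median 0.72). These counts and medians take Hbb-bt and Hbb-b2 as separate members. The adult beta-globin genes Hbb-bt and Hbb-b2 carried the same values in every library, 365 and 394 TPM in KO libraries against 71.6 and 75.4 TPM in WT libraries (2.35 ± 0.09), while the third copy, Hbb-b1, was near 1 TPM and lower (-0.82 ± 0.28, not called without KO replicate 1 or either WT replicate), so how reads were divided among these near-identical genes is uncertain. Tfrc, the transferrin receptor that brings iron into cells, had 111 and 119 TPM in KO libraries and 69.7 and 67.7 TPM in WT libraries (0.74 ± 0.07). Of 18 megakaryocyte genes 12 passed the filter, with 7 higher and 0 lower at 0 h (median 1.03). At 4 h 7 were higher and 1 lower (median 0.56), and the lower call, in Vwf, held only without KO replicate 1. Itga2b, the platelet integrin chain CD41, had 35.1 and 33.5 TPM in KO libraries, against 9.87 and 9.51 TPM in WT libraries (1.72 ± 0.09). F2r, a thrombin receptor, had 96.6 and 95.7 TPM in KO libraries, against 21.1 and 21.6 TPM in WT libraries (2.12 ± 0.10). The secretory GTPase Rab27b and the integrin chain Itgb3 differed by 1.66 ± 0.13 and 0.91 ± 0.10.

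Stem and progenitor genes were called more often than all genes in both directions, with more higher than lower, as over all genes. Of 28 measured members, 12 were higher (42.9%, beside 24.9% of all genes tested) and 7 lower (25.0%, beside 13.7%) at 4 h. The median was 0.23, beside 0.10 over all genes. At 0 h 15 were higher and 3 lower (median 0.36). The count of higher members was less secure than those above. Without WT replicate 2 it was 6, with 5 lower, and without KO replicate 2 it was 8, with 4 lower. Besides Igfbp7, the higher members included Angpt1, a ligand of the endothelial and stem cell receptor TIE2, with 18.2 and 21.03 TPM in KO libraries, against 3.02 and 3.27 TPM in WT libraries (2.31 ± 0.12). The adhesion receptor Adgrg1, also known as GPR56, had 207 and 193 TPM in KO libraries, against 71.03 and 71.4 TPM in WT libraries (1.48 ± 0.07). Cd48, a SLAM family surface protein, differed by 1.36 ± 0.07 and Cd34 by 0.76 ± 0.08. All 5 were clear of the WT values in both KO libraries, but 73.2% of the genes tested had no overlap either. Among the lower members was Myc, the growth factor-induced transcription factor, at 2.75 and 2.75 TPM in KO libraries and 3.74 and 4.90 TPM in WT libraries (-0.50 ± 0.13), a call that ended without KO replicate 1 (limma adjusted p = 0.0539), KO replicate 2 (0.0531) or WT replicate 2 (0.129).

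Homing and adhesion genes were called in both directions, the higher ones at close to the share of all genes. Of 46 measured genes, 8 were higher and 11 lower at 0 h (median -0.04). At 4 h 13 were higher (28.3%, beside 24.9% of all genes tested) and 12 lower (26.1%, beside 13.7%), with a median of 0.01. After rescaling by the median ratio, 10 were higher and 17 lower at 4 h (median -0.08). The integrin chains that pair on neutrophils and macrophages were lower together: Itgam by -1.17 ± 0.08, and Itgb2, with 231 and 225 TPM in KO libraries and 504 and 470.2 TPM in WT libraries, by -1.09 ± 0.08. Itgb7, an integrin chain of mast cell progenitors and of lymphocytes bound for the gut, was higher, with 56.6 and 50.4 TPM in KO libraries and 21.7 and 26.4 TPM in WT libraries (1.12 ± 0.10). The tetraspanin Cd9 was lower (-0.95 ± 0.08), the opposite of Tspan13 in the same family. Chemokine ligands were lower in 9 of 17 measured genes and higher in 3, both at 0 h (median -0.59) and at 4 h (median -0.87). Ccl5, a chemoattractant of T cells and monocytes, had 37.5 and 30.1 TPM in KO libraries, against 187 and 168 TPM in WT libraries (-2.36 ± 0.12). The monocyte chemokine Ccl2, the myeloid chemokine Ccl6 and the neutrophil chemokine Cxcl2 differed by -1.16 ± 0.06, -0.74 ± 0.05 and -1.41 ± 0.10. The 3 ligands higher at 4 h, named after their values were seen, were Ppbp (1.14 ± 0.17), which platelets store, Ccl3 (0.80 ± 0.09) and Ccl9 (0.61 ± 0.06).

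Immediate early genes were lower in KO cells at 4 h, and part of them changed between 0 h and 4 h. They encode short-lived transcription factors and regulators that signals switch on without new protein synthesis, and their mRNAs are known for rapid decay. Of 38 measured members, 30 were lower in KO cells at 4 h and 1 higher, with a median of -0.83. At 0 h, 13 of the 38 were lower and 4 higher, with a median of -0.10. At 8 h, 23 were lower and 1 higher, with a median of -0.55. The count of lower members at 4 h stayed between 28 and 30 without each of the 4 libraries. The higher member at 4 h was Id3, an inhibitor of basic helix-loop-helix factors, named after its values were seen (0.69 ± 0.24), and it was not called without KO replicate 2, WT replicate 1 or WT replicate 2, nor under median-ratio scaling.

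Whether the genotype difference itself changed was tested as the difference at 4 h minus that at 0 h. In all, 39 of the 11152 genes passed, or 0.35% of the genes tested, of which 33 moved down (0.296%) and 6 moved up (0.0538%). Among the 33 were 11 of the 38 immediate early genes. Junb, a component of the AP-1 factor, had 17.8 and 18.8 TPM in KO libraries at 4 h, against 55.4 and 55.2 TPM in WT libraries (-1.54 ± 0.08). At 0 h it had 146 and 149 TPM in KO libraries, against 149 and 174 TPM in WT libraries (-0.12 ± 0.08), and the KO and WT values overlapped. The change of the difference was -1.42 ± 0.12 (limma adjusted p = 0.000598). Id1, an inhibitor of basic helix-loop-helix factors, stood on opposite sides at the 0 h and 4 h times. It had 28.7 and 23.8 TPM in KO libraries and 47.6 and 47.6 TPM in WT libraries at 4 h (-0.84 ± 0.10), whereas at 0 h it had 264 and 274 TPM in KO libraries and 154 and 189.7 TPM in WT libraries (0.65 ± 0.10), a change of -1.49 ± 0.15 (limma adjusted p = 0.0012). Cited2, a transcriptional co-regulator needed by blood stem cells in mice, had 7.11 and 7.18 TPM in KO libraries and 14.2 and 14.3 TPM in WT libraries at 4 h, and 331 and 317 TPM in KO libraries and 248 and 307 TPM in WT libraries at 0 h, a change of -1.14 ± 0.14 (limma adjusted p = 0.00742). The host gene of small nucleolar RNAs Snhg20 and the actin-binding Tmsb10 changed by -1.04 ± 0.13 and -0.93 ± 0.08. These 5 changes were called without each of the 8 libraries of the 4 groups in turn, and no gene that moved up met that rule.

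The count of 39 depends on single libraries and on the fit. Without WT replicate 2 of 0 h it was 98, and without any other of the 8 libraries it lay between 10 and 24. It was 162 under median-ratio scaling and 93 when the 4 groups compared were fitted alone. Among immediate early genes that were called but lost the call when a library was left out, Ier3 changed by -0.79 ± 0.11 (adjusted p of up to 0.0677, without KO replicate 2 of 0 h), Zfp36 by -0.98 ± 0.15 (up to 0.0841, without the same library) and Jun by -0.86 ± 0.16 (up to 0.188, without WT replicate 2 of 4 h). At 4 h itself, the anti-apoptotic early response gene Ier3 had 12.1 and 11.7 TPM in KO libraries and 26.5 and 26.6 TPM in WT libraries (-1.10 ± 0.08), and Jun, the partner of FOS in AP-1, had 11.6 and 12.01 TPM in KO libraries and 29.1 and 32.98 TPM in WT libraries (-1.32 ± 0.11). Zfp36 and Zfp36l1, proteins that bind AU-rich elements and speed decay of the mRNAs that carry them, differed by -1.04 ± 0.10 and -1.23 ± 0.12. Both KO libraries were below both WT libraries for all 4 genes, while 73.2% of the genes tested had no overlap in one direction or the other.

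**Figure D4:**
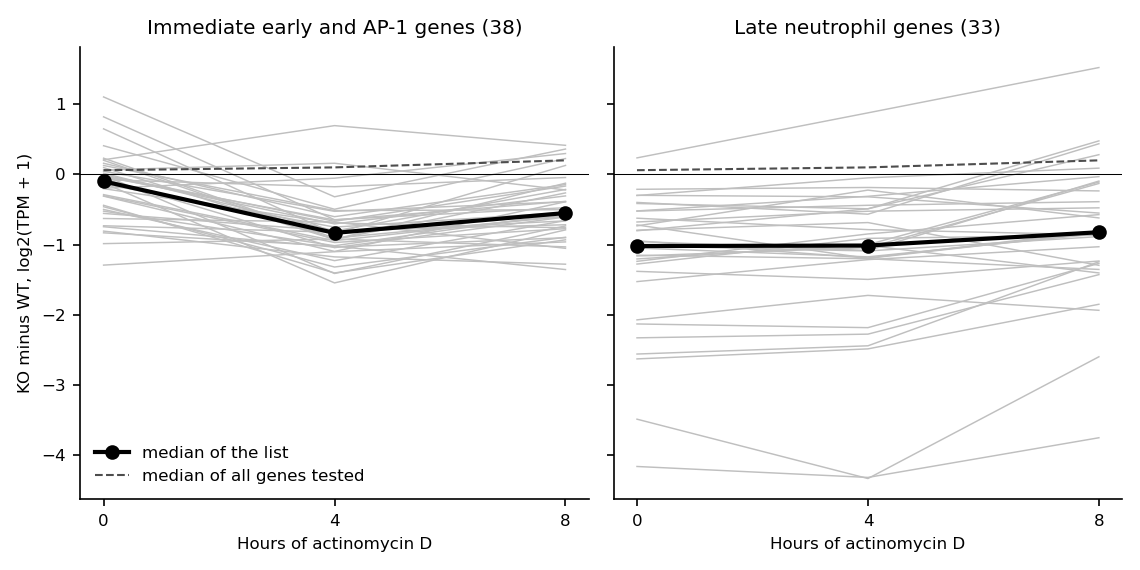
Difference between genotypes, KO minus WT on the log2(TPM + 1) scale, at 0, 4 and 8 h of actinomycin D for each of 38 immediate early genes (left) and 33 late neutrophil genes (right) in grey, with the list's median in black and the median of all genes tested dashed. The median of immediate early genes is -0.10 at 0 h, -0.83 at 4 h and -0.55 at 8 h, whereas that of late neutrophil genes is -1.02, -1.01 and -0.82.

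**Figure D5:**
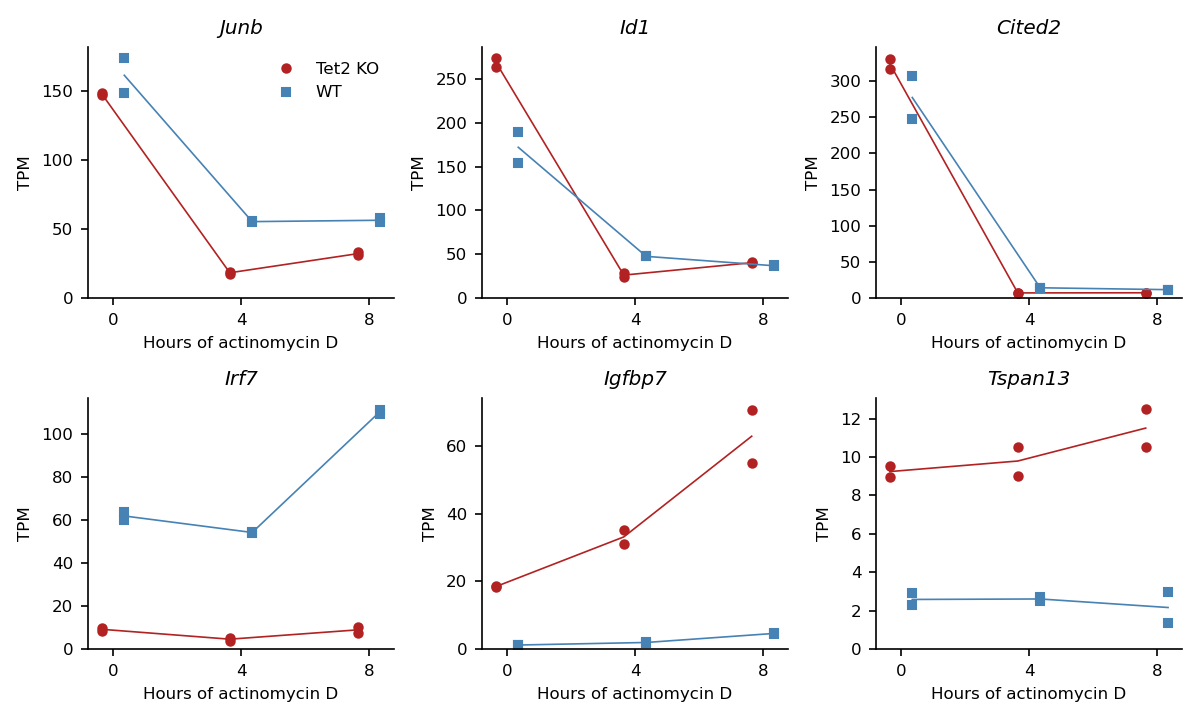
TPM per library (symbols) and group mean (lines) of 6 genes at 0, 4 and 8 h of actinomycin D, KO in red circles drawn left of WT in blue squares at each time. Junb, Id1 and Cited2 drop in both genotypes and lie lower in KO cells at 4 h, while Irf7, Igfbp7 and Tspan13 are apart at each of the 3 times.

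Genes that differed in opposite directions at 4 h and 0 h were rare. The comparisons share no library, but they share each gene's estimate of the spread, so their calls are not independent. In both, 2105 genes were called, which is 48.9% of those called at 4 h and 73.3% of those called at 0 h. Of these 2093 had the same sign and 12 opposite signs, 3 of them higher (Alkbh2, Lenep and Ttc39a, named after their values were seen) and 9 lower in KO cells at 4 h. Across all genes tested, which are not independent of each other, the differences correlated at r = 0.76. The lower ones with a mean of at least 5 TPM at 4 h included, besides Id1, Tmsb10, which had 879 and 927 TPM in KO libraries and 1393 and 1385 TPM in WT libraries at 4 h (-0.62 ± 0.06) and differed by 0.31 ± 0.06 at 0 h. Ddit4, an inhibitor of mTORC1 induced by stress, had 3.95 and 4.81 TPM in KO libraries and 7.57 and 7.20 TPM in WT libraries at 4 h (-0.64 ± 0.14) and differed by 0.82 ± 0.14 at 0 h. Ppp1r15a, which directs removal of a phosphate from the initiation factor eIF2α, differed by -0.51 ± 0.11 at 4 h and 0.45 ± 0.11 at 0 h, the 0 h call ending without KO replicate 1 of 0 h (limma adjusted p = 0.116) or WT replicate 1 of 0 h (0.0543). The changes of Ddit4 (-1.46 ± 0.20) and Ppp1r15a (-0.96 ± 0.15) passed the test of the change, with adjusted p of up to 0.0666 for Ddit4 (without KO replicate 2 of 0 h) and 0.129 for Ppp1r15a (without KO replicate 1 of 0 h) when single libraries were left out.

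Regulators of signalling and survival were mixed, with more lower than higher members at 4 h in each of 3 lists. Of all genes tested, 13.7% were lower and 24.9% higher at 4 h. Of 32 measured feedback inhibitors of NF-kappaB, ERK and JAK-STAT signalling, 12 were lower (37.5%) and 3 higher (9.38%), with a median of -0.14. At 0 h 5 were lower and 8 higher (median 0.08). At 4 h the lower count was 7 without KO replicate 1. Of the 3 higher members at 4 h, Nfkb1, Dusp4 and Spred1, 1 was called without each of the 4 libraries in turn. Nfkbia, which holds NF-kappaB in the cytoplasm, had 1.28 and 0.8 TPM in KO libraries and 4.15 and 4.51 TPM in WT libraries (-1.39 ± 0.13). The ERK phosphatase Dusp6 and the JAK inhibitor Socs3 differed by -1.37 ± 0.16 and -1.17 ± 0.14. Of 27 p53 targets, 4 were higher and 7 lower (median -0.08), the lower count being 4 without WT replicate 1. Perp, a desmosomal and apoptotic protein, was the largest on the higher side, with 260.2 and 252 TPM in KO libraries, against 80.4 and 79.3 TPM in WT libraries (1.67 ± 0.08). Btg2, an antiproliferative protein that also recruits deadenylase, differed by -1.40 ± 0.16, and the cyclin Ccng1 by 0.60 ± 0.11. In the BCL2 family, 5 of 17 were lower and 3 higher at 0 h (median 0.08). At 4 h 6 were lower (35.3%) and 1, the death agonist Bid (0.63 ± 0.11), was higher (5.88%), with a median of -0.18. Under median-ratio scaling 10 were lower at 4 h. Mcl1, a short-lived survival protein, had 20.9 and 22.5 TPM in KO libraries and 40.8 and 46.3 TPM in WT libraries (-0.97 ± 0.10). The survival genes Bcl2a1a, Bcl2a1b and Bcl2a1d differed by -2.10 ± 0.23, -1.92 ± 0.14 and -1.86 ± 0.12, and as near-identical copies their separate values are uncertain.

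Genes of the mRNA decay machinery were called in both directions, the lower ones at close to the share of all genes. Of 65 measured genes, 24 were higher (36.9%, beside 24.9% of all genes tested) and 10 lower (15.4%, beside 13.7%) at 4 h (median 0.24). At 0 h 3 were higher and 2 lower (median 0.10), beside 14.3% and 11.5% of all genes tested. In the test of the change 2 members passed, both downward (Zfp36 and Zfp36l2). The count of higher genes was 11 without WT replicate 1, where 1991 of all 11152 genes were higher. It was 12 without KO replicate 1, where 1836 of all genes were higher. The count of lower genes was 6 without WT replicate 2. The lower members were led by Zfp36, Zfp36l1, Btg1 (-1.03 ± 0.11) and Btg2, which recruit deadenylases to particular mRNAs and are themselves early response genes, whereas the higher members included 8 of 9 measured exosome subunits and 6 of 11 of the CCR4-NOT complex, a grouping made after the values were seen. The exosome subunit Exosc9 had 42.2 and 39.3 TPM in KO libraries and 26.2 and 26.7 TPM in WT libraries (0.61 ± 0.09), and the scaffold Cnot1 had 32.2 and 33.03 TPM in KO libraries and 22.6 and 19.6 TPM in WT libraries (0.61 ± 0.13). These 2 subunits were named after their values were seen.

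Ribosomal, mitochondrial and chaperone transcripts took a larger share of KO libraries. Of 82 measured cytosolic ribosomal protein genes, 67 were higher and 1 lower (median 0.34), and 38 were higher under median-ratio scaling. At 0 h 75 were higher and 1 lower (median 0.38). At 4 h they summed to 25.6% and 25.8% of all TPM in KO libraries, against 19.8% and 20.1% in WT libraries. Rps27l had 1167 and 1298 TPM in KO libraries and 726 and 731 TPM in WT libraries (0.76 ± 0.06), and Rpl22 differed by 0.89 ± 0.08. The lower member was Rps4l, a copy related to Rps4x (-1.04 ± 0.24), named after its values were seen. Of 78 mitochondrial ribosomal protein genes, 39 were higher and 0 lower (median 0.38), of which 25 were called without KO replicate 2 and 28 under median-ratio scaling. Mrpl3, a protein of the large subunit, had 66.1 and 66.9 TPM in KO libraries and 42.3 and 37.6 TPM in WT libraries (0.72 ± 0.09). Of 78 subunits of oxidative phosphorylation, 36 were higher and 1, Ndufb3, was lower (median 0.22), the lower call holding only without KO replicate 2, with 21 higher without KO replicate 1, 22 without WT replicate 1 and 16 under median-ratio scaling. Ndufs7, a complex I subunit, had 147 and 152 TPM in KO libraries and 93.5 and 90.1 TPM in WT libraries (0.70 ± 0.09). The isoform Cox4i2, which this list did not hold, differed by more than any member, with 11.8 and 12.9 TPM in KO libraries and 0.96 and 1.04 TPM in WT libraries (2.74 ± 0.33). Cox7a1, a further isoform, was uneven between libraries of a genotype, with 15.4 and 29.8 TPM in KO libraries and 2.91 and 6.68 TPM in WT libraries (2.04 ± 0.42).

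Genes with short transcripts leaned slightly higher at 4 h. The median difference was 0.17 over 267 genes with a transcript length under 600 nt (GENCODE M21). It was 0.13 from 600 to 1000 nt and from 1000 to 2000 nt, 0.10 from 2000 to 4000 nt and 0.07 above 4000 nt. Genes under 600 nt were called least often (31.8%, beside 34.9% to 42.2% in the longer groups). At 8 h their median was 0.02, beside 0.17 to 0.24 in the longer groups. The median length was 776 nt for cytosolic ribosomal protein genes and 737 nt for oxidative phosphorylation subunits, beside 2582 nt for all genes tested. The part of length in these lists was not tested. Of 38 chaperones, 23 were higher and 3 lower (median 0.33). Hspa8, the constitutive HSP70 chaperone, had 689 and 733 TPM in KO libraries and 392 and 359.99 TPM in WT libraries (0.92 ± 0.08). It was among the 6 genes whose difference moved up between 0 h and 4 h, by 0.69 ± 0.11, with an adjusted p of up to 0.0942 when single libraries were left out (without KO replicate 2 of 0 h). The mitochondrial co-chaperonin Hspe1 and the chaperonin subunits Cct4 and Cct6a differed by 0.87 ± 0.09, 0.70 ± 0.07 and 0.75 ± 0.08. The 3 lower members, named after their values were seen, were the heat-inducible Hspa1a (-0.93 ± 0.16) and Hspa1b (-0.72 ± 0.18), which are near-identical, and Dnajb4 (-0.44 ± 0.14), of which 1 was called without WT replicate 2. Under median-ratio scaling 5 were lower.

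Metabolic and cell cycle lists were higher by small amounts. Of 23 glycolysis genes, 9 were higher and 1, the aldolase isoform Aldoc (-0.53 ± 0.10), was lower (median 0.20), and 4 were lower under median-ratio scaling. Slc2a3, a glucose transporter, had 34.3 and 33.05 TPM in KO libraries, against 10.5 and 11.7 TPM in WT libraries (1.52 ± 0.10), and Ldha, lactate dehydrogenase, differed by 0.41 ± 0.05. Of 27 cholesterol synthesis genes, 13 were higher and 2, Mvd and Fdps, were lower (median 0.29), with at most 1 lower when a library was left out and 8 higher without KO replicate 2, WT replicate 1 or WT replicate 2. Acat2, which joins acetyl-CoA units, had 38.3 and 34.7 TPM in KO libraries and 14.4 and 16.3 TPM in WT libraries (1.20 ± 0.10). Of 39 mitosis genes, 29 were higher and 0 lower at 4 h (median 0.46), against 5 higher and 0 lower at 0 h (median 0.15). Kpna2, a nuclear import receptor, had 147 and 156 TPM in KO libraries and 104 and 98.5 TPM in WT libraries (0.58 ± 0.08), and the chromosomal passenger protein Birc5 differed by 0.48 ± 0.07. Of 47 DNA replication genes, 26 were higher and 0 lower at 4 h (median 0.32), against 4 higher at 0 h (median 0.12). That count was 10 without WT replicate 2 and 13 without either KO replicate. Orc2, a subunit of the origin recognition complex, had 17.9 and 17.6 TPM in KO libraries and 9.43 and 8.32 TPM in WT libraries (0.93 ± 0.12), and Rrm2, the ribonucleotide reductase subunit, differed by 0.56 ± 0.08. In neither list did any member pass the test of the change between 0 h and 4 h.

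Few zinc finger genes of the Zfp series, many of them DNA-binding repressors, were called higher. The share called lower was near that of all genes. Of 266 measured members, 11 were higher (4.14%, beside 24.9% of all genes tested) and 29 lower (10.9%, beside 13.7%). The median was -0.04, beside 0.10 over all genes. Without single libraries the counts were 3 to 7 higher and 13 to 18 lower, and were smallest without WT replicate 2. By name the list also holds Zfp36, an RNA-binding protein. Zfp516 had 2.77 and 2.43 TPM in KO libraries and 6.57 and 6.11 TPM in WT libraries (-1.03 ± 0.14).

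Between 4 h and 8 h the genotype difference moved in 1387 genes. The called genes at 4 h and 8 h shared 3258, or 75.6% of those at 4 h and 59.1% of those at 8 h, 3179 with the same sign and 79 with opposite signs. The 1387 genes that passed the test of the difference at 8 h minus that at 4 h were 12.4% of the genes tested, 1195 of them upward (10.7%) and 192 downward (1.72%), whereas under median-ratio scaling 773 were upward and 539 downward. The total was between 698 and 820 without each of the 4 libraries of 4 h, lowest without KO replicate 2, and 864 without KO replicate 1 of 8 h. Upward, Camp moved by 1.73 ± 0.22: at 8 h it had 17.6 and 21.6 TPM in KO libraries, against 126 and 120.02 TPM in WT libraries, so the gap seen at 4 h was smaller but still there (-2.60 ± 0.15). Igfbp4, a further secreted binding protein for insulin-like growth factors, had 650.1 and 625 TPM in KO libraries and 363 and 353 TPM in WT libraries at 4 h, and 807 and 779.7 TPM in KO libraries and 168 and 172 TPM in WT libraries at 8 h, a change of 1.39 ± 0.09. Ankle1, an endonuclease, was lower in KO cells at 4 h (-0.74 ± 0.11) and higher at 8 h (0.79 ± 0.11), a change of 1.53 ± 0.15. Spint2, an inhibitor of serine proteases, the vesicle protein Sytl1 and Scrn2 moved up by 1.29 ± 0.13, 1.35 ± 0.22 and 1.34 ± 0.24. At 4 h Scrn2 and Spint2 did not pass the test (0.27 ± 0.17 and 0.21 ± 0.09), and Sytl1 passed it (0.50 ± 0.16) but not without KO replicate 2 (limma adjusted p = 0.161) or WT replicate 2 (0.198).

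Downward, several of the largest changes were in short transcripts. The ribosomal protein genes Rps21, Rps29 and Rpl38 have median transcript lengths of 394, 390.0 and 368 nt. Rps21 had 6778 and 6729 TPM in KO libraries and 2754 and 2917 TPM in WT libraries at 4 h (1.25 ± 0.18), and 4084 and 4226 TPM in KO libraries and 6165 and 6319.6 TPM in WT libraries at 8 h (-0.59 ± 0.18). Rps29 differed by 1.00 ± 0.25 at 4 h and -0.79 ± 0.25 at 8 h, and Rpl38 by 1.15 ± 0.18 at 4 h and -0.55 ± 0.18 at 8 h, so that all 3 were higher in KO cells at 4 h and lower at 8 h. Ndufa5, a complex I subunit, went the same way, with 1.52 ± 0.33 at 4 h and -0.95 ± 0.33 at 8 h. For each of these 4 genes the call at 8 h, though not that of the change, ended without at least 1 library of 8 h, with a limma adjusted p of up to 0.0674 for Rps21 (without KO replicate 1 of 8 h), 0.126 for Rps29 and 0.138 for Rpl38 (both without WT replicate 1 of 8 h) and 0.197 for Ndufa5 (without KO replicate 2 of 8 h). Spaca9 and the noncoding RNA Rab26os did not pass the test at 4 h (0.06 ± 0.16 and -0.35 ± 0.43), and their differences moved by -1.90 ± 0.23 and -3.80 ± 0.61. The WT libraries of 4 h were far apart for Rab26os, so that KO libraries, at 8.21 and 12.5 TPM, lay between them, at 6.34 and 26.6 TPM. Without WT replicate 1 of 4 h Rab26os was called lower in KO cells at 4 h (limma adjusted p = 0.00222).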

How the data were processed

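RNA of 12 libraries of mouse NRAS/AE9a leukemic cells was sequenced after a stranded mRNA library preparation, per the labels' protocols. The deposited table gives TPM per gene. STAR, RSEM and mm10 are named in the submitters' processing notes, with versions not given in the sources used here. RSEM divides reads that match several genes, which makes near-identical copies uncertain, and TPM are shares of a library with no depth behind them. The filter kept genes that reached 1 TPM in 2 or more of 12 libraries. For these, log2(TPM + 1) was fitted with limma 3.58.1 in R 4.3.3, with 6 group means, empirical Bayes with a trend and 6 residual degrees of freedom, so all groups share an estimate of the spread. P-values were adjusted by Benjamini-Hochberg over 11152 genes and called below 0.05. The contrasts were KO minus WT at each of 3 times and the changes of that difference between times. The script was tested on simulated data. The rule for naming genes took Tet2, Tspan13, Cxcr4 and Ybx1. It took the 15 largest differences each way that were called without each library, averaged 5 TPM or more and did not overlap. It took up to 6 changes each way between times that were called without each of the 8 libraries compared and averaged 5 TPM or more. It also took up to 4 opposite genes each way and up to 4 members per list with the smallest p. Some genes the rule named are not reported here. The 35 gene lists, the members and the tests were chosen with earlier results of these data known. Scaling, filter, pseudocount, trend, replicate block, groups fitted and single libraries were varied (20 alternatives).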

Additional observations from a re-analysis of the deposited data

Results flagged for a closer look

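The difference between genotypes changed between 0 h and 4 h for 14 of the genes named, by limma's test of the difference at 4 h minus that at 0 h. The change was -1.49 for Id1, -1.42 for Junb, -1.14 for Cited2, -1.04 for Snhg20 and -0.93 for Tmsb10. These 5 were called without each of the 8 libraries in turn, as the rule that named them for their change required. For 9 further genes at least 1 library left out ended the call. The change was -1.46 for Ddit4, -0.96 for Ppp1r15a, -0.79 for Ier3, -0.86 for Jun, -0.98 for Zfp36 and -1.0 for Nfkbia. It was -0.99 for H2-Aa, -0.99 for Slfn2 and 0.69 for Hspa8, the 1 upward change among the 14. The largest adjusted p was 0.196 for Nfkbia (without KO replicate 1 of 0 h, and 0.0687 with the replicate block), 0.135 for H2-Aa (without KO replicate 2 of 0 h) and 0.152 for Slfn2 (without WT replicate 2 of 4 h).

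By the same test between 4 h and 8 h, the difference changed by 1.73 for Camp, 1.53 for Ankle1, 1.39 for Igfbp4, 1.35 for Sytl1, 1.34 for Scrn2, 1.29 for Spint2 and 0.67 for Ybx1. The downward changes were -3.80 for Rab26os, -2.47 for Ndufa5, -1.90 for Spaca9, -1.84 for Rps21, -1.79 for Rps29 and -1.70 for Rpl38. All 13 were called without each of the 8 libraries of 4 h and 8 h in turn, which the naming rule required of all but Ybx1. Of the genes flagged here, some were picked by the size of a change called without each library. Others were named in advance, by opposite signs at 0 h and 4 h or by a small p at 4 h within a list. The causes were not tested.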

How the results depend on the processing

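No named gene that was called reversed direction in the 20 alternatives, but the balance of higher and lower genes did in some counts: at 0 h without WT replicate 1 of 0 h (977 higher and 1330 lower) or KO replicate 1 of 0 h (835 and 898), in homing genes under median-ratio scaling (10 and 17) or without KO replicate 1 (10 and 11) or KO replicate 2 (11 and 12), and in TET and DNA methyltransferase genes without WT replicate 2 (2 and 3). Stromal and endothelial markers, 2 higher and 3 lower as fitted, were 2 higher and 1 lower without KO replicate 2 or WT replicate 1. With single libraries left out, the genes called numbered 2882 to 4577 at 4 h (1766 to 2976 higher and 1116 to 1606 lower), 1710 to 3087 at 0 h, 4676 to 5646 at 8 h, 10 to 98 for the change between 0 h and 4 h and 698 to 1673 for that between 4 h and 8 h. The change between 0 h and 4 h was called for 93 genes with the compared groups fitted alone and 162 under median-ratio scaling, and the change between 4 h and 8 h for 834 without the trend; the cause was not tested. Of 1400 list counts under alternatives, 101 moved. Depth is unknown, so genes near 1 TPM have no counting error given.

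Pairing was examined because the replicate numbers recur in each group. The numbers did not pair the libraries: deviations from group means correlated at -0.083 to 0.051 over 15 pairs of groups. With the replicate block, 4236 genes were called at 4 h (2715 higher and 1521 lower), 2801 at 0 h, 5431 at 8 h, 40 for the change between 0 h and 4 h and 1279 for that between 4 h and 8 h. The block ended the call of the change of Nfkbia (limma adjusted p = 0.0687).

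Among named genes, median-ratio scaling ended the 4 h call of Rps29 (limma adjusted p = 0.0512), Sytl1 (0.0744) and Id3 (0.109). The unfiltered table ended that of Sytl1 (0.0508), Id3 (0.108) and Hbb-b1 (0.087), a pseudocount of 0.1 that of Hbb-b1 (0.0588) and Id3 (0.0505), the fit with no trend that of Id3 (0.0581), and the compared groups alone that of Dnajb4 (0.0558).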
